A study of Mus musculus with 16 samples.

Results

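H3K9me3 was examined at predicted mouse genes, the loci whose symbol is Gm followed by a number. A H3K9me3 peak was a member when the deposited annotation gave it a symbol of this form and called the peak overlapping with that gene. The rule used no measured level. It selected 8299 of the 212313 peaks, in 2939 genes, and 53465 further peaks overlapped genes of any other symbol and served for comparison. Another 7137 peaks had a Gm gene as the nearest gene without overlapping it and were not members. The data came from C57BL/6 mice. All animals were male, and their age is not given in the sources used here. Whole crypt isolates of the small intestine were compared between wild type mice (WT) and mice with Vil-Cre mediated deletion of Smarcad1 (KO), in which the Villin promoter drives Cre in the intestinal epithelium. H3K9me3 was profiled by chromatin immunoprecipitation with sequencing (ChIP-seq) in 3 WT and 3 KO libraries, with 1 input library (chromatin without antibody) per genotype. Whole crypt isolates hold several epithelial cell types, so a change within cells and a change in the mixture of cells cannot be told apart.

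H3K9me3 marks constitutive heterochromatin and is laid down on satellite repeats, on retroviral elements and over clusters of zinc finger genes. Smarcad1 is an ATP-dependent chromatin remodeler that is known to help restore this heterochromatin after DNA replication. Gm symbols are placeholders for gene models that were found by annotation and have not been given a functional name. They cover long noncoding RNA genes, processed pseudogenes (retrotransposed copies of mRNAs), other pseudogenes, small RNA genes and some protein-coding models.

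The centre of 5 peaks is shown, from among the called peaks of smallest p in each direction: Gm5805 (chr15:81973126-81973425), Gm39132 (chr8:11873776-11874075) and Gm27253 (chr9:72273001-72273300) were lower in KO, and Gm39027 (chr7:67850551-67850850) and Gm26965 (chr13:67517251-67517550) were higher. Each sequence has 300 bases of the plus strand of GRCm38.p6, 5′ to 3′, and capitals mark bases that the reference masks as repeats.
Gm5805: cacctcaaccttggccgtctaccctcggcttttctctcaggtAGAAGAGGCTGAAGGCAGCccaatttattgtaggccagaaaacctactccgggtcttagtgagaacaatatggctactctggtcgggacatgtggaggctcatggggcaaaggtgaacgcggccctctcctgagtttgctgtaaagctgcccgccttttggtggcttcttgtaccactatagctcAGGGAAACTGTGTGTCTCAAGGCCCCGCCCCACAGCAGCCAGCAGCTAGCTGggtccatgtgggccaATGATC
Gm39132: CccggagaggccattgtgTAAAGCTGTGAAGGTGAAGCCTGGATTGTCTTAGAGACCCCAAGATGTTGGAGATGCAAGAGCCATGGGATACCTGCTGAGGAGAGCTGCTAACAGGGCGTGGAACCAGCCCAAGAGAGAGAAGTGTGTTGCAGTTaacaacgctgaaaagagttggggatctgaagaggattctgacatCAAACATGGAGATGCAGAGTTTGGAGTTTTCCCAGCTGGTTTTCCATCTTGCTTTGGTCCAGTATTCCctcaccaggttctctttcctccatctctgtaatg
Gm27253: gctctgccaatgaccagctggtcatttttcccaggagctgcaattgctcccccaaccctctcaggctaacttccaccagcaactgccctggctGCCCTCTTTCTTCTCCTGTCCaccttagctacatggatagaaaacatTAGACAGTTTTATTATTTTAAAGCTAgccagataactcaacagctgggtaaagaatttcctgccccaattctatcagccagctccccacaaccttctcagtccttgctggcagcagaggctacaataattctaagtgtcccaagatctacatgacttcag
Gm39027: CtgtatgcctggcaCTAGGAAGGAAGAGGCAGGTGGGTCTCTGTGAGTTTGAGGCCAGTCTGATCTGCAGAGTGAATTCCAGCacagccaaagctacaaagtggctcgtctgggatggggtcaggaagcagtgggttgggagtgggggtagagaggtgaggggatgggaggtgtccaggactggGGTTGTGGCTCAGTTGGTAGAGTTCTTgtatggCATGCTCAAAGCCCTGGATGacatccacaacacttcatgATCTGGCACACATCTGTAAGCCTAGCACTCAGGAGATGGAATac
Gm26965: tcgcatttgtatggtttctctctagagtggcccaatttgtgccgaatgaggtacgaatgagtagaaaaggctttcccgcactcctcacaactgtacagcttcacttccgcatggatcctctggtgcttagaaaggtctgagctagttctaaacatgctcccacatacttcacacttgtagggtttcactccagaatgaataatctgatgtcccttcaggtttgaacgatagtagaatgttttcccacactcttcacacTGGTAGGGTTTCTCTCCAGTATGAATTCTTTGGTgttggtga
Repeat-masked bases made up 25.7% of the Gm5805 window, 68.3% of the Gm39132 window and 15.7% of the Gm27253 window. Among the higher peaks the share was 53% at Gm39027 and 11.3% at Gm26965. The windows of both directions thus range from mostly unmasked to mostly masked sequence.

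Reads in peaks, recovered from the deposited values, numbered between 7055479 and 11873121 in the 6 H3K9me3 libraries, and the median peak held 23 to 38 reads. The inputs held 8838386 (WT) and 8452186 (KO) reads in the same peaks. KO replicate 1 was the shallowest library. No H3K9me3 peak overlapped Smarcad1 (0 peaks), which left no value to check the deletion with, and expression of crypt markers was not measured in these libraries.

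At Gm genes the H3K9me3 changes that passed the test went almost entirely toward lower values in KO. Of the 8299 peaks, 296 in 235 genes were lower and 13 in 13 genes were higher (limma on the deposited log2 values, Benjamini-Hochberg adjusted p below 0.05 over all peaks). At an unadjusted limma p below 0.05 the directions were less uneven, with 747 Gm peaks lower and 303 higher. Lower peaks made up 3.57% of Gm peaks and 3.53% of peaks in genes of other symbols (1888 of 53465), beside 2.46% of all peaks of the series. Higher peaks made up 0.157% of Gm peaks and 0.621% of peaks in other genes (332), beside 0.252% of all peaks. The share of lower peaks at Gm genes was above that of the series and near that of other genes, the share of higher peaks was below both, and the differences between shares were not tested. The peaks higher in other genes were concentrated, since Grip1 and Arl15 together held 112 of them, and 0.413% of the remaining peaks were higher.

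The median log2 change over all Gm peaks was 0.011, beside 0.026 in other genes and 0.028 over the series. Called changes were much larger, with a median of -0.79 among lower Gm peaks and 0.78 among higher ones. The strongest fall was -1.88 and the strongest rise 1.84. The latter was in a peak of 300 bp with 4 to 7 reads per WT library and 14 or 15 per KO library, and its call was lost without WT replicate 1, KO replicate 1 or KO replicate 3. In 291 of the 296 lower peaks and 12 of the 13 higher peaks, the 3 KO values did not overlap the 3 WT values. Without regard to the test, all KO values lay below all WT values in 10.1% of Gm peaks (8.21% of all peaks) and above them in 6.69% (7.3% of all peaks). The count of lower peaks rested on the mean-variance trend of limma: without it 3 were lower and 0 higher, with 651 lower and 239 higher at an unadjusted p below 0.05. It fell to 183 without WT replicate 1, and the count of higher peaks to 8 without KO replicate 2 and 6 without KO replicate 3. Both counts were also smaller with DESeq2 on recovered counts, as given under the dependence on processing.

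**Figure D1:**
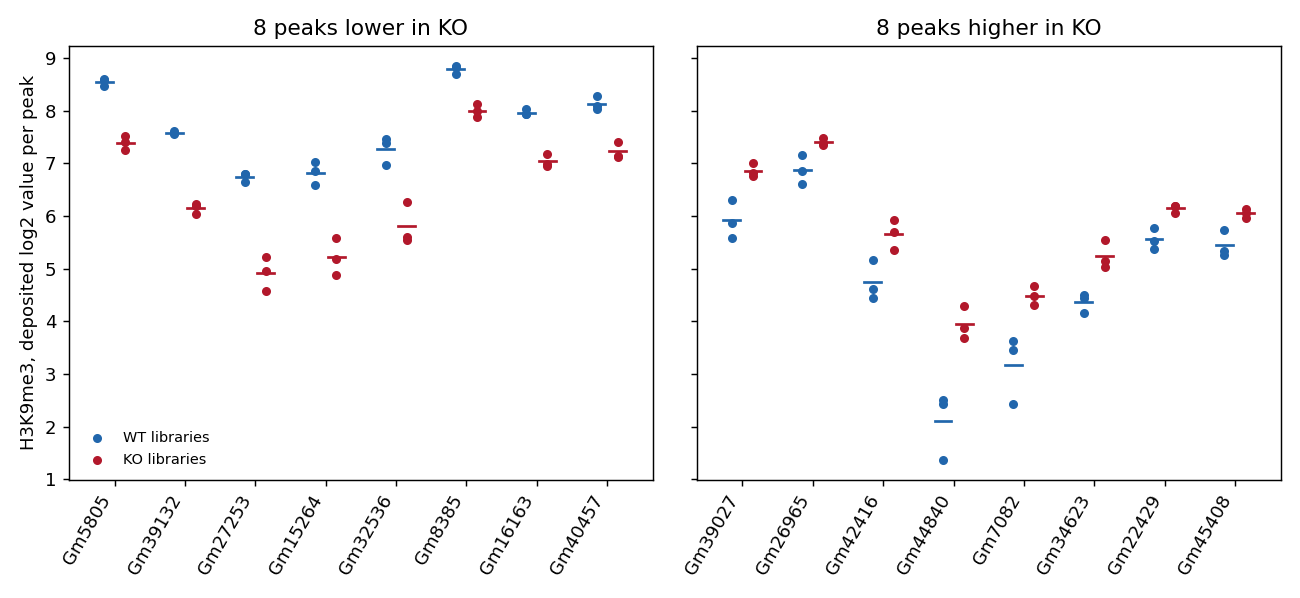
Deposited log2 H3K9me3 value (y axis) of the 8 lower and the 8 higher Gm peaks of smallest p, named by gene on the x axis, with a point for each of 3 WT and 3 KO libraries and a line for the group mean. The peaks were chosen to have the 3 KO points on one side of the 3 WT points.

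The lower peak of smallest p lay over Gm5805, a processed pseudogene on chromosome 15. The peak (81970051 to 81976500) was far wider than the gene (81972390 to 81972845) and covered it whole. WT libraries had deposited log2 values of 8.46, 8.58 and 8.59, and KO libraries of 7.26, 7.52 and 7.39. The KO libraries were all lower, with a change of -1.15 (SE 0.094, limma adjusted p = 1.36e-12). Input reads fell the same way here, from 160 (WT) to 113 (KO), and their part in the result was not tested.

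Gm39132 is a long intergenic noncoding RNA (lincRNA) gene on chromosome 8. The peak at its start (11871901 to 11875950) held 221, 183 and 213 reads in the WT libraries, against 46, 88 and 74 in those of KO. The groups did not overlap, and the log2 change was -1.42 (SE 0.12, limma adjusted p = 4.45e-12). Input reads numbered 78 (WT) and 90 (KO), so the input was not lower.

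Gm27253 is a lincRNA gene on chromosome 9, and its lower peak (72271801 to 72274500) lay within an intron. Log2 values were 6.79, 6.65 and 6.79 in the WT libraries, against 4.57, 4.95 and 5.21 in those of KO. WT libraries were close to each other and KO libraries were more spread. The change was -1.83 (SE 0.17, limma adjusted p = 7.39e-11). Input reads were also lower in KO, 57 against 73 in WT.

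The remaining 5 of the 8 lower peaks of smallest p were, like those above, taken from peaks with separate groups. Gm15264, an unprocessed pseudogene on chromosome 3, changed by -1.61 through an intronic peak (94745251 to 94747650), from 6.82 ± 0.21 to 5.21 ± 0.35 (SD, n = 3 in each genotype). Gm32536, a processed pseudogene on chromosome 6, changed by -1.46, from 7.27 ± 0.26 to 5.81 ± 0.40. At Gm8385, a processed pseudogene on chromosome 12, a peak of 9150 bp changed by -0.79, from 8.79 ± 0.079 to 8.00 ± 0.13. Gm16163, a processed transcript on chromosome 8 that overlaps 2810004N23Rik, changed by -0.93, and the lincRNA gene Gm40457 on chromosome 7 by -0.91. The limma adjusted p of these 5 peaks lay between 1.18e-09 and 1.32e-08, with 3 libraries per genotype in a fit across all peaks.

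Among the higher peaks, the smallest p belonged to Gm39027, a lincRNA gene on chromosome 7. The peak (67849201 to 67852200) covered the start of the gene, which is read from the minus strand. Log2 values were 5.87, 5.57 and 6.30 in the WT libraries, against 6.76, 7.01 and 6.82 in those of KO. All KO values were above WT, by 0.95 (SE 0.15, limma adjusted p = 1.83e-05). The input also held more reads in KO (85) than in WT (61).

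Some higher peaks lay where a Gm model overlaps a named gene. The peak within Gm26965 on chromosome 13 (67515451 to 67519350) also lies in Zfp87, a zinc finger gene, and rose by 0.53 (SE 0.12, limma adjusted p = 0.0039). This call was lost without WT replicate 1, with DESeq2 on recovered counts and without the limma trend.

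The higher peak over Gm7082, a processed pseudogene on chromosome 8, rested on few reads, with 14, 5 and 13 reads in the WT libraries, against 16, 23 and 25 in those of KO. Its log2 change was 1.31 after matching of distributions, and its call held without WT replicate 1 or WT replicate 3 and was lost without any of the other 4 libraries. Other higher peaks with non-overlapping groups were in the lincRNA genes Gm34623 (0.87) and Gm45408 (0.61) and at the small nucleolar RNA gene Gm22429 (0.59). The small nucleolar RNA itself, which belongs to the RNAs that guide chemical modification of other RNAs, spans 65170041 to 65170170 on chromosome 16, inside a peak of 2700 bp. The calls of Gm22429 and Gm45408 held without WT replicate 3 and were lost without any of the other 5 libraries, and that of Gm34623 held without WT replicate 3 or KO replicate 2 alone.

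The lower peaks were found where H3K9me3 peaks are sparse. When the genome was divided into windows of 1 Mb and each window was classed by its number of H3K9me3 peaks, 1621 Gm peaks (19.5%) fell in windows with fewer than 50 peaks. These held 268 of the 296 lower peaks (90.5%). The share of lower peaks was 16.5% below 50 peaks per window, 1.74% at 50 to under 100, 0.514% at 100 to under 200 and 0.0276% (1 of 3618) at 200 or more. Peaks of other symbols followed the same steps, with 16.9%, 3.00%, 0.659% and 0.0498%. The classes were set after the data had been seen. Without WT replicate 1 the lower peaks in sparse windows numbered 162.

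The shift in sparse windows was not limited to called peaks. There the median log2 change of Gm peaks was -0.28 and 77.0% of them had a value below 0. In windows of 200 or more peaks the median was 0.065 and 36.9% were below 0. The median deviation of Gm peaks in sparse windows from the mean of each peak was 0.23, 0.12 and 0.13 for the WT libraries, against -0.19, -0.094 and -0.12 for those of KO. Every WT library thus lay above every KO library, and WT replicate 1 and KO replicate 1 were the farthest apart. Leaving out any single library kept the median between -0.25 and -0.30. In windows of 200 or more peaks the order was turned, with WT at -0.033, -0.013 and -0.022 and KO at 0.048, 0.035 and 0.035. The deposited values were matched in distribution over all peaks, so a fall in some peaks and a rise in others are relative to each other.

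**Figure D2:**
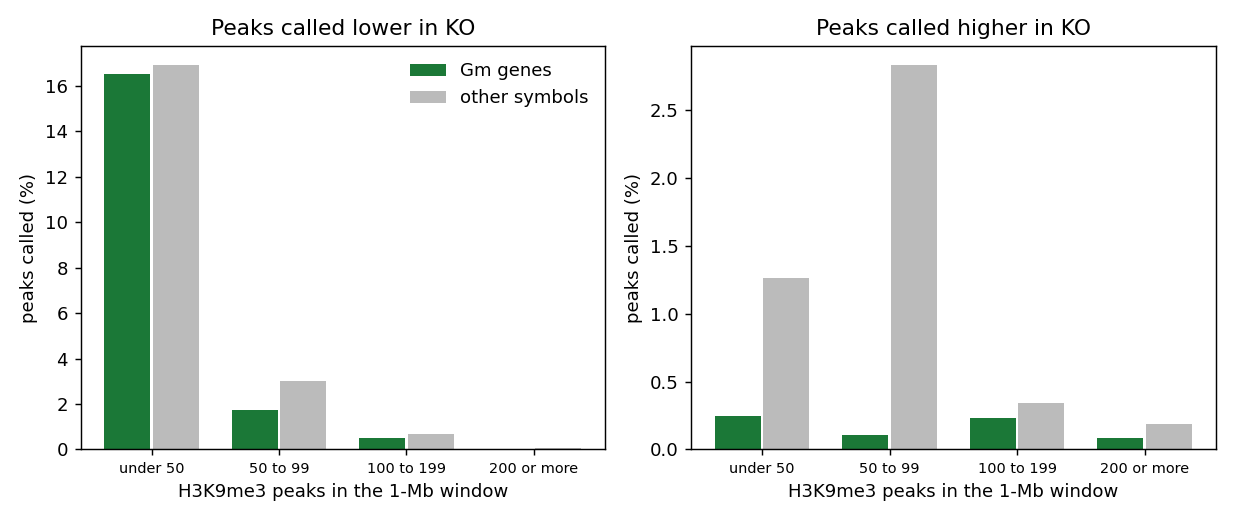
Percent of peaks called lower (left) and higher (right) in KO by limma (y axis) against the number of H3K9me3 peaks in the 1-Mb window (x axis), for Gm genes and for genes of other symbols. Lower calls reach 16.5% and 16.9% in the sparsest class and fall toward 0 in the densest. The panels have different y scales.

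**Figure D3:**
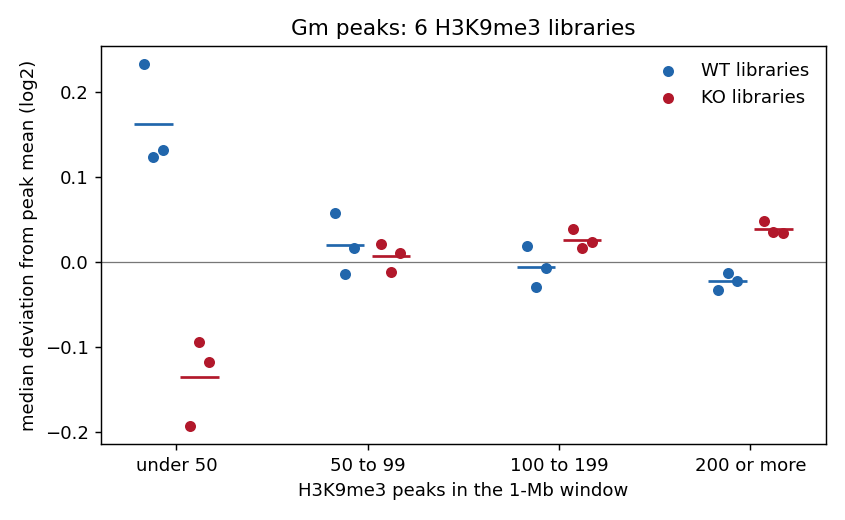
Median log2 deviation of Gm peaks from the mean of each peak over the 6 libraries (y axis) by class of peaks per 1-Mb window (x axis), with a point per library and a line for the group mean. WT lies above KO in the sparsest class and below it in the densest.

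Sparse windows differed from the rest in base composition. The median GC content of Gm peaks was 44.1% below 50 peaks per window and 39.2% at 200 or more. The contrast was present within each range of GC. Among Gm peaks with under 38% GC, 9.95% were lower in sparse windows and 0.208% in all other windows. Between 38% and 42% GC these shares were 23.4% and 0.467%, between 42% and 46% they were 19.9% and 0.612%, and at 46% or more they were 11.01% and 0.416%. The input had no lower median in sparse windows: the median log2 ratio of KO to WT input was 0.11 there and -0.012 in windows of 200 or more peaks, in peaks with at least 10 reads in each input and relative to all such peaks. Median WT ChIP over input, relative to the median of all peaks, was 0.36 in sparse and -0.059 in dense windows on the log2 scale. Whether any of these properties has a part in the lower values was not tested.

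By gene type, protein-coding Gm models had 52 of 769 peaks lower (6.76%) and 2 higher. Of the 52, 16 lay in the long models Gm37240 and Gm20388, and without these 36 of 697 were lower (5.16%). TEC models, whose transcripts await experimental support, had 12 of 227 lower (5.29%), and pseudogenes that are not processed copies had 30 of 608 (4.93%). Long noncoding RNA genes, the largest group, had 153 of 4931 (3.10%), processed pseudogenes 35 of 1306 (2.68%) and small RNA genes 10 of 444 (2.25%). Within the long noncoding group, antisense genes had 44 of 572 lower (7.69%) and lincRNA genes 87 of 3827 (2.27%). Processed transcripts had 20 of 388 (5.15%), bidirectional promoter genes 1 of 55 (1.82%) and sense overlapping genes 1 of 89 (1.12%). These subtypes were not counted in genes of other symbols. In genes of other symbols the shares were 3.55% for protein-coding genes, 3.57% for TEC models, 3.34% for the other pseudogenes, 3.65% for long noncoding RNA, 2.51% for processed pseudogenes and 3.03% for small RNA, the TEC and small RNA shares resting on 56 and 33 peaks. In 14 further peaks no gene type was matched. Protein-coding models also had the largest share of peaks in sparse windows among the types named (36.7%, beside 17.6% for long noncoding RNA). Within sparse windows the shares lay closer together, from 14.0% for small RNA to 20.2% for the other pseudogenes, with 17.7% for protein-coding models. Outside sparse windows they were between 0.345% and 1.03%.

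For some gene types the called peak of smallest p is described, which is an extreme and not a typical member. Over all Gm peaks of a type, the median log2 change was 0.028 for TEC models, -0.056 for protein-coding models and 0.023 for small RNA genes. Gm37786 on chromosome 10, a TEC model, had log2 values of 5.92, 5.91 and 5.93 in the WT libraries, against 3.29, 4.48 and 4.35 in those of KO. This was the largest fall of any Gm peak called, at -1.88 (SE 0.24, limma adjusted p = 2.30e-07). The protein-coding model Gm43064 on chromosome 3 changed by -0.92, and its peak also lies in Bcl2l15, a gene of the Bcl-2 family. The small nuclear RNA gene Gm27635 on chromosome 14 changed by -0.68, from 8.23 ± 0.030 to 7.55 ± 0.039 (SD, n = 3). Its gene of 56852758 to 56852816 lies inside a peak of 5100 bp, most of which is flanking sequence.

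Gm models can also share their sequence with other genes. In 486 Gm peaks (5.86%) a gene with another symbol overlapped the peak, and 31 of these were lower (6.38%) and 4 higher (0.823%). In peaks of other genes that overlap a further symbol, 90 of 1239 were lower (7.26%) and 30 higher (2.42%). Without them, 265 of 7813 Gm peaks (3.39%) were lower and 9 were higher. By position, 57 of 1865 peaks over a transcription start were lower (3.06%), 57 of 1186 over another exon (4.81%) and 178 of 5234 in introns (3.40%). Peaks of other genes gave 2.73%, 6.12% and 3.16% at the same positions.

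Lower calls were rare in narrow peaks. The median width was 1500 bp at Gm genes and 1350 bp at other genes. Under 1000 bp, 17 of 2408 Gm peaks were lower (0.706%). At 1000 to under 2000 bp 4.69% were lower, at 2000 to under 5000 bp 4.78% and at 5000 bp or more 4.77%. In other genes these shares were 1.07%, 4.62%, 4.68% and 3.80%. The gap was smaller without the test. All KO values lay below all WT values in 7.43% of Gm peaks under 1000 bp, and in 11.9%, 10.5% and 10.6% of the wider classes. Whether narrow peaks were harder to call was not tested. Higher calls differed more between Gm and other genes: at 5000 bp or more, 1 of 755 Gm peaks was higher (0.132%), beside 88 of 3081 peaks of other genes (2.86%), or 52 (1.71%) without Grip1 and Arl15. The single wide Gm peak that was higher lay over Gm2619, a pseudogene on chromosome 1, with a log2 change of 0.31 (limma adjusted p = 0.04). Over all widths, Grip1, Arl15, Tcf4, Camkmt and Mb21d2 together held 154 of the 332 higher peaks of other genes, so neighbouring peaks of few genes weigh on that share. The difference between Gm and other genes was not tested.

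**Figure D4:**
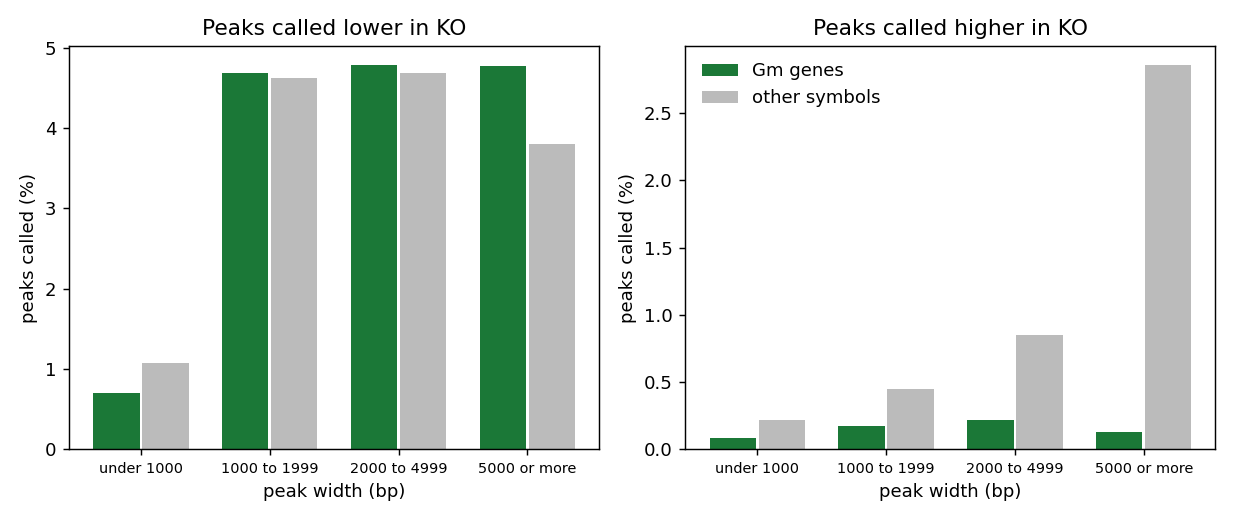
Percent of peaks called lower (left) and higher (right) in KO by limma (y axis) by peak width (x axis), for Gm genes and genes of other symbols. Lower shares are alike from 1000 bp upward, and higher shares grow with width in other genes and stay below 0.25% at Gm genes. The panels have different y scales.

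The widest Gm peaks did not pass the test. A peak of 54900 bp over the processed pseudogene Gm12892 on chromosome 4 had log2 values of 11.16, 11.11 and 11.11 in the WT libraries, against 11.23, 11.09 and 11.28 in those of KO. The peak of 46950 bp around the microRNA gene Gm23215 on chromosome 16 changed by -0.15 (SE 0.058, limma adjusted p = 0.23). Peaks over the lincRNA genes Gm28078 (43800 bp) and Gm42945 (37350 bp) changed by 0.089 and 0.064. Values of WT and KO overlapped in all 4 peaks.

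Gm peaks were most numerous on chromosome 1 (1138 peaks), chromosome 7 (1013), chromosome 8 (884) and chromosome 4 (882). The share of lower peaks was 0.907% on chromosome 4 (8 peaks) and 9.23% on chromosome 11 (18 of 195). Peaks of other genes gave 3.53% on chromosome 4 and 4.97% on chromosome 11, and the differences were not tested. On chromosome 4, 8.62% of the Gm peaks lay in sparse windows, and on chromosome 11 50.3% did. Within sparse windows the shares were 10.5% on chromosome 4 and 18.4% on chromosome 11. On chromosome X, 6 of 91 peaks were lower (6.59%, beside 2.22% in other genes). Of these 91 peaks, 83 (91.2%) lay in sparse windows, where 7.23% were lower, beside 16.5% of all Gm peaks in sparse windows. On chromosome Y 0 of 92 peaks were lower, and 12 lay in sparse windows.

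A few genes held many peaks, of which few were called. In 77 Gm genes with 20 or more peaks, 17 of 3054 peaks were lower (0.557%), whereas 132 of 2158 peaks that were the single peak of their gene were lower (6.12%). In genes of other symbols the same classes gave 0.182% (67 of 36887) and 15.9% (599 of 3770), and the difference from Gm genes was not tested. The number of peaks per gene was not separated from the number of peaks per 1-Mb window. Of the 17, 10 were in Gm37240 and 6 in Gm20388, and the remaining 75 genes had 1 lower peak among 2982. Gm32647, a lincRNA gene on chromosome 7 (94042691 to 94709171), held 210 peaks with a median log2 change of 0.099, of which 0 were called by limma, and the KO and WT values did not overlap in 10 peaks with KO below and 13 with KO above, beside 8.21% and 7.3% of all peaks. The lincRNA genes Gm45341 on chromosome 8 (123 peaks, median 0.076) and Gm12381 on chromosome 4 (100 peaks, median 0.033) also had 0 calls.

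**Figure D5:**
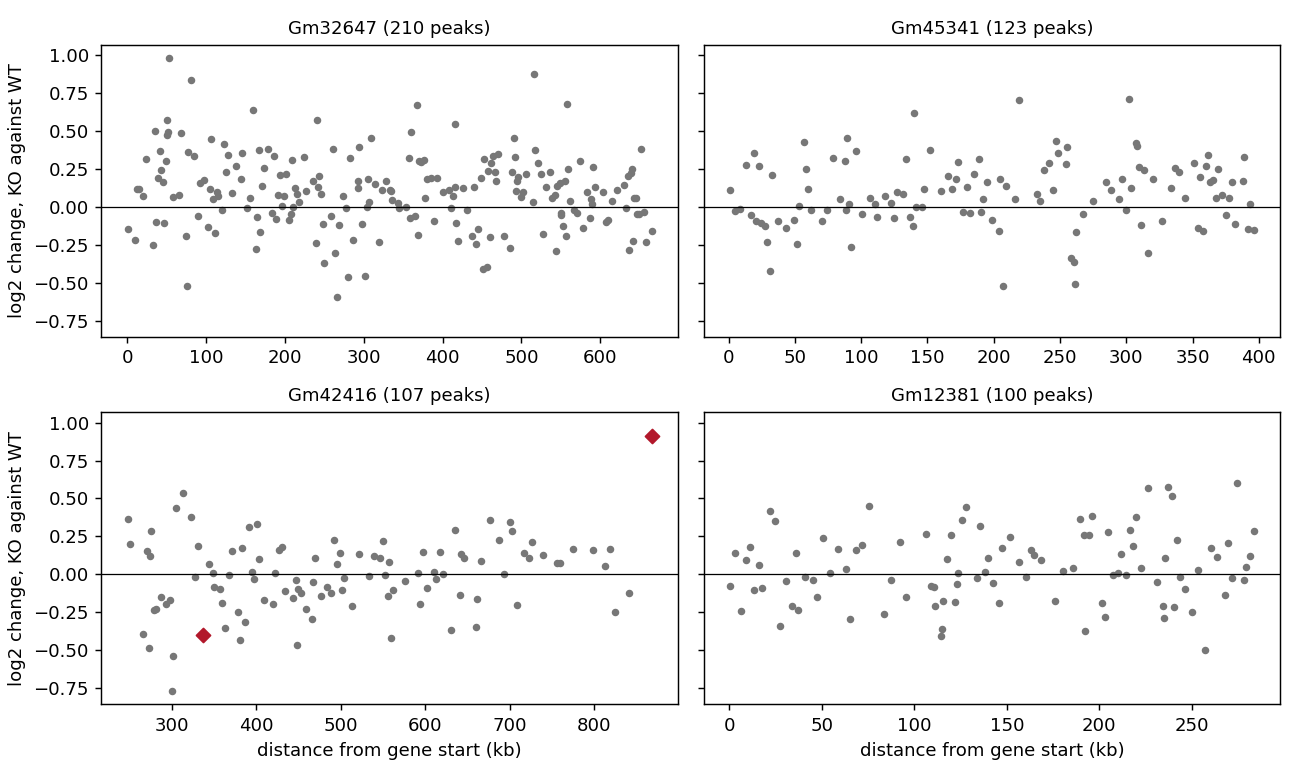
Log2 change of each peak between KO and WT (y axis) against the distance of the peak from the gene start in kb (x axis) in the 4 Gm genes with most peaks. Grey points are peaks not called and red diamonds are peaks called by limma, 2 in Gm42416 and 0 in the other 3 genes.

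Gm42416, on chromosome 18 (36952741 to 37840200), is a protein-coding model that runs through protocadherin genes, which encode adhesion proteins with many alternative first exons. It held 107 peaks with a median change of 0.0043. A peak at 37287301 to 37292400 was lower (-0.40), a call that held without WT replicate 1 or KO replicate 2 and was lost without any of the other 4 libraries, and a peak at 37819801 to 37821450, which also lies in protocadherin gamma genes such as Pcdhga1, was higher (0.91, SE 0.21, limma adjusted p = 0.0054). The input was also higher in KO there (24 reads in WT, 41 in KO), and the call was lost without WT replicate 2 or KO replicate 2. Both calls were also lost with DESeq2 on recovered counts and without the limma trend. Gm42416 was the 1 Gm gene with both a lower and a higher peak.

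The 296 lower Gm peaks lay in 235 genes, beside 1888 in 1472 genes of other symbols, and 39 Gm genes had more than 1. Gm37240, a model of 1391 kb on chromosome 3, had 10 lower of 28 peaks and a median change of -0.45. Parts of it run through named genes such as Fbxw7, a ubiquitin ligase subunit, and Gatb. Gm20388, a model of 4435 kb on chromosome 8, had 6 lower of 44. At Gm28802, an unprocessed pseudogene on chromosome 1 (58850085 to 58892792), all 4 peaks were lower, by -0.73, -1.12, -1.01 and -0.72. The lincRNA gene Gm13481 on chromosome 2 had 4 lower of 9 peaks, the antisense gene Gm15614 on chromosome 5 had 4 lower of 8, and the protein-coding model Gm20498 on chromosome 12 had 4 lower of 9. Gm28802, Gm13481, Gm15614 and Gm20498 were picked after their values were seen, for having 4 lower peaks.

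Counted in windows of 1 Mb, Gm peaks lay in 1340 windows and called ones in 224. The windows with most Gm peaks, on chromosome 7 from 94000001 (210 peaks) and on chromosome 8 from 50000001 (126 peaks), had 0 calls, and the third, on chromosome 18 from 37000001 (107 peaks), had 2. Few calls are usual at this density. Lower peaks made up 0.514% of Gm peaks in windows of 100 to under 200 H3K9me3 peaks, and 0.0276% at 200 or more. The windows with most calls were on chromosome 3 from 85000001, with 7 lower of 18 peaks, and on chromosome 1 from 58000001, with 6 lower of 6. In the latter, Gm28802 and the neighbouring Gm15834 and Gm28803 contributed. The next place was shared by windows with 4 calls each on chromosomes 2, 5 and 12. The windows with most calls were ranked on the calls themselves, and 3.57% of all Gm peaks were lower.

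The level of H3K9me3 at Gm peaks was close to that at other genes. After dividing by peak width, the median log2 value per kb was 0.022 ± 0.0078 higher at Gm peaks in WT and 0.012 ± 0.014 higher in KO (SD, n = 3). ChIP over input, centred on the median of all peaks, was 0.067 ± 0.024 at Gm peaks in WT and 0.0021 ± 0.0029 in KO, and -0.0012 ± 0.012 and -0.031 ± 0.010 at other genes. WT libraries were above KO libraries in all 3 values, but each genotype had 1 input, and with the mean of both inputs the Gm values were 0.040 and 0.022.

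Among peaks with at least 10 reads in each input, those with the highest WT ChIP over input were in Gm26870, Gm21989, Gm30524 and Gm15188. They were chosen on WT values alone, which favours a lower value in KO, so WT and KO are given as a description. The Gm26870 peak, in a lincRNA gene on chromosome 9 (3011101 to 3013050), stood 2.35 above the median of all peaks on the log2 scale in WT and 1.54 in KO. It is 96.8% repeat-masked, its ChIP values overlapped between genotypes, and its input held 15 reads in WT and 21 in KO. Gm15188, an unprocessed pseudogene on the X chromosome, stood at 2.07 in WT and 0.44 in KO on the same scale, with 12 and 22 input reads. Its call as lower (log2 change -0.66) was lost under 5 of the 6 removals of 1 library and held without KO replicate 2. The median log2 ratio of KO to WT input was 0.11 in lower Gm peaks and 0.16 in higher ones, relative to all peaks. Of the 292 lower Gm peaks with at least 10 reads in each input, 106 (36.3%) had a lower input in KO, beside 45.1% of all such Gm peaks.

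Gm peaks held more repeated sequence than peaks of other genes, with a median of 35.0% masked bases beside 26.7%, and were close to all peaks of the series (35.2%). Of Gm peaks with under 25% masked bases, 1.24% were lower and 0.235% higher. At 25% to 49% the lower share was 4.26%, at 50% to 74% it was 6.36% and at 75% or more it was 4.40%. In other genes the same classes gave 1.08%, 5.34%, 6.49% and 5.79%. Reads were filtered on mapping quality by the authors, so copies of a repeat that cannot be told apart contribute few reads.

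H3K9me2, the dimethylated form, which marks broader domains of repressed chromatin, was measured in the same design. Of the Gm peaks, 5494 (66.2%) lay in deposited H3K9me2 regions, but among the lower ones 51 of 296 (17.2%) did. In peaks of other genes these shares were 66.8% and 8.05%. The 2296 regions that overlap Gm peaks had a median log2 change of 0.0096, beside 0.0063 in all 47065 regions. The limma test called 0 regions in the whole table (0% called), and at an unadjusted p below 0.05 there were 10 lower (0.436%) and 25 higher (1.09%) regions among the 2296. Over all regions these counts were 822 (1.75%) and 855 (1.82%).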

How the data were processed

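ChIP-seq libraries of H3K9me3 and H3K9me2 from small intestinal crypts (3 WT, 3 KO and 2 inputs per mark) were grouped by sample title. According to the methods of the study and the submitters' processing notes, reads were trimmed with Trim Galore 0.4.4, mapped to GRCm38 with Bowtie2 2.3.2, filtered on mapping quality and freed of duplicates, and MACS peaks were called once from the pooled ChIP libraries with both inputs as control. The H3K9me3 values deposited by the authors are log2 read counts per peak, transformed so that the 6 ChIP libraries have matching distributions. This removes differences in depth and any shift over all peaks. Inputs were not matched and stay as log2 counts. For H3K9me2, the signal deposited by the authors is the mean read count per peak in a region. A table of read counts deposited by the authors lists 3 H3K9me2 peaks past their edgeR test. It was used as a check: each count lay within the sum of its region, and 0 of the peaks overlapped a Gm peak. The corresponding H3K9me3 table was not used. Columns of the authors' adjusted p-values were not used, nor were 8 columns of SD, and 0 per-sample columns were left without a sample.

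All 212313 H3K9me3 peaks were tested with limma 3.58.1 (lmFit, eBayes with trend, genotype as the single term, two-sided) and adjusted by Benjamini-Hochberg over all peaks. H3K9me2 was tested in the same way on log2 of the scaled signal plus 1. Overlap meant at least 1 bp. Counts were recovered from the ranks of the deposited values and returned them within 0.01 for 99.6% of peaks. They served for depth and for alternative tests with edgeR 4.0.16 and DESeq2 1.42.0. The fit was tested on simulated data with 200 features changed 2-fold: 58.5% were recovered over 212313 H3K9me3 peaks with 2 false calls, and 96.5% over 47065 H3K9me2 regions with 11. The simulated spread of each feature followed the mean-variance trend alone. The false calls therefore cannot check the calls in the real data, which depend on that trend. Gene types, exons and gene coordinates came from GENCODE M21, and sequence and masked bases from RefSeq GRCm38.p6. Of the Gm peaks, 8285 had a gene with a matched type. Labels do not say whether replicates are separate animals, and the study calls those of H3K9me3 biological replicates. The p-values measure the spread between libraries. R 4.3.3 and Python 3.11.15 were used. The members, groups and lists were chosen with earlier results of these data known. Named peaks were the 8 lower and 8 higher of smallest p with separate groups (1 per gene), the 4 genes with most peaks, the 4 widest peaks, the 4 highest over WT input, for each of 6 gene types the called peak with the smallest p, and the windows with most Gm peaks and most calls. The sequence of 1 named higher peak is not reported here. Protein sequences were not used here, so zinc finger models were not grouped.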

Additional observations from a re-analysis of the deposited data

How the results depend on the processing

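The median change at Gm peaks lay between -0.0034 and 0.016 under the alternatives run, but the counts of calls depended on the test. Without the limma trend, lower and higher peaks numbered 3 and 0 at Gm genes and 41 and 16 at other genes. DESeq2 on recovered counts gave 134 and 1 at Gm genes and 808 and 112 at other genes, and an adjusted p below 0.01 gave 188 and 3, and 1220 and 212. Merging peaks of 1 gene within 1 kb left 8 higher Gm peaks. The median Gm change was -0.0013 with merged peaks, -0.0024 with DESeq2 and -0.0034 with edgeR, and the causes were not tested. Leaving out 1 library gave 183 to 271 lower and 6 to 10 higher Gm peaks (8 without KO replicate 2, 6 without KO replicate 3), 1178 to 1761 lower and 213 to 346 higher peaks in other genes, and Gm medians from 0.0026 to 0.016. Lower Gm peaks in sparse windows, an addition made after the data were seen, numbered 3 without the trend, 122 with DESeq2 and 162 to 245 with 1 library left out, and the median of all Gm peaks there, called or not, lay between -0.25 and -0.30 with 1 library left out. Without division by width, Gm peaks were 0.12 (WT) and 0.11 (KO) above other genes. With the mean of both inputs, ChIP over input at Gm peaks was 0.040 (WT) and 0.022 (KO). The H3K9me2 median moved by less than the spread between libraries under each alternative run. Library numbers were not taken to pair the samples, since the correlations of same-numbered libraries were -0.0147, 0.00898 and -0.0144 for H3K9me3 and 0.181, 0.0165 and 0.0758 for H3K9me2, and for H3K9me3 with the replicate block 297 Gm peaks were lower and 12 higher. Of the named lower peaks, Gm39132 and Gm27253 kept their call under the 12 alternatives run for single peaks, and the other 6 of the 8 lower peaks of smallest p lost it without the trend alone. The lower peaks in Gm15188 and Gm42416 lost it under 8 and 7 of 12 alternatives, an adjusted p below 0.01 among them. The named higher peaks lost it under 1 (Gm39027) to 8 (Gm22429 and Gm45408) of the alternatives that tested them. Recovery of changes by peak width or depth was not tested.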

Other observations

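Called Gm peaks share stretches of sequence. Among 2032 stretches of 31 bases found in at least 5 of the 309 called peaks, 282 Gm peaks held at least 100, and 34 of these were lower and 0 higher (12.1% lower, beside 3.27% of the 8017 Gm peaks without them). The stretches were drawn from these called peaks, so this share among Gm peaks is fixed in part by the choice. In peaks outside Gm genes, from which no stretch was drawn, 337 of 5254 with the stretches were lower (6.41%), beside 2.31% of the rest, and all were measured in the same libraries. In windows with fewer than 50 peaks the shares outside Gm genes were 24.6% with and 14.6% without the stretches, and in the other windows 1.68% and 0.352%. Peaks with the stretches were wider, with a median of 3150 bp beside 1350 bp outside Gm genes, and held more masked bases, with a median of 86.6% beside 34.2%. The stretches were not compared within classes of masked bases. At 2000 to under 5000 bp the shares outside Gm genes were 9.23% and 3.30%, and at 5000 bp or more 3.73% and 2.84%. The comparison was made after the data were seen and was not tested.

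The windows of 300 bases richest in these stretches are shown for the 3 lower Gm peaks of smallest p that hold them, in the lincRNA gene Gm39132 (chr8:11874396-11874695) and the antisense genes Gm15614 (chr5:32583175-32583474) and Gm16365 (chr10:39605671-39605970), on the plus strand of GRCm38.p6, 5′ to 3′. Capitals mark bases inside a shared stretch, 216, 181 and 177 in number.
Gm39132: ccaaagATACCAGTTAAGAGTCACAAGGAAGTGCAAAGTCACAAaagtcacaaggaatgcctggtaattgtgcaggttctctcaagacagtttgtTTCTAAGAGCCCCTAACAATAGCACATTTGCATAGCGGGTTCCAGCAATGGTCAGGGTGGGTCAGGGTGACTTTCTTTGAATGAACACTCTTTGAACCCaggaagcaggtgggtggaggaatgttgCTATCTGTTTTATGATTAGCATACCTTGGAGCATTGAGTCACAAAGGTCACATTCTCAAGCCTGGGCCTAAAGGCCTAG
Gm15614: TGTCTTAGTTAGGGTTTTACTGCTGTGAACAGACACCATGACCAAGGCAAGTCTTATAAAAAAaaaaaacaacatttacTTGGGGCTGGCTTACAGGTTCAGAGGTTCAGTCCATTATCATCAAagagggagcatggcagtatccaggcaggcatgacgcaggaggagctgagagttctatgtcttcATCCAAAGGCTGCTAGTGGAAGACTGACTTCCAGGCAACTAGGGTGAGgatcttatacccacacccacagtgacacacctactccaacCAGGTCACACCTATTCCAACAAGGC
Gm16365: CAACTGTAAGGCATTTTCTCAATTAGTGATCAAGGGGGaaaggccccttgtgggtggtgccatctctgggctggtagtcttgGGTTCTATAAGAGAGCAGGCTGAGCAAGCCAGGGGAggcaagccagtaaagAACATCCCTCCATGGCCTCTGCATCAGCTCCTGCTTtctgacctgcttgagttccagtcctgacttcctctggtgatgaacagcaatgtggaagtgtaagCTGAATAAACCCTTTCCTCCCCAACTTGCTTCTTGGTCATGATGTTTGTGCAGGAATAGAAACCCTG
The 3 peaks changed by -1.42 (Gm39132), -0.73 (Gm15614) and -0.81 (Gm16365) on the log2 scale. By gene type, the 34 lower peaks with shared stretches included 17 of 130 peaks with them in long noncoding RNA genes (13.1%). Protein-coding models had 6 of 45 lower (13.3%), other pseudogenes 5 of 32 (15.6%) and processed pseudogenes 2 of 49 (4.08%). Small RNA genes had 1 of 20 (5%) and TEC models 1 of 4 (25%).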
